A study of Homo sapiens with 6 samples.

Results

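Chromosome 19 holds the densest collection of zinc finger genes in the human genome. The genes described here are the protein-coding genes of chromosome 19 in GENCODE 44 (hg38) whose symbol is ZNF followed by a number. There were 249 of them among 1476 protein-coding genes on the chromosome and 20033 in the genome, and the measure for each was whether its transcription start lay in a broad domain of H3K9me3, the histone mark of constitutive heterochromatin. The domains had been called by chromatin immunoprecipitation and sequencing in MCF10.DCIS.com cells, an established breast epithelial line that carries an oncogenic T24-H-RAS and serves as a model of ductal carcinoma turning invasive. Control (CTR) monolayers carried the empty lentiviral vector pSLIK-neo-EV, and RAB5A monolayers carried pSLIK-neo-RAB5A, from which doxycycline induces RAB5A, an early endosome GTPase that fluidizes jammed monolayers. Both were antibiotic-selected lines. Each condition was assayed once with the H3K9me3 antibody ab176916 (replicate 1) and once with ab8898 (replicate 2), which gives 4 libraries with n = 2 per condition, and the replicate error is therefore also the difference between antibodies. The 2 input libraries were not analysed here. The domain lists carry no read counts, and the study reports only an average number of reads per sample. The depth of each library is therefore unknown. The lists hold neither RNA nor signal values from which the cell line or the RAB5A level could be checked. Domains begin and end at whole 200 kb steps, and no position can be read more finely than that.

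Most genes of this family encode C2H2 zinc finger proteins of the KRAB class. The fingers, small zinc-binding units repeated in tandem, read DNA, and the KRAB box near the amino terminus recruits the corepressor TRIM28, which brings in the histone methyltransferase SETDB1 and the HP1 proteins. The proteins thereby place H3K9me3 on transposable elements and other targets, and the genes that encode them, which arose by repeated tandem duplication, are themselves known to be covered by H3K9me3 in many cell types, mostly over their finger-coding exons.

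The repeated unit that unites these genes is shown by 1 finger with its linker from each of 6 genes, 4 of them in domains and 2 in the large cluster that had none, so that the similarity of the coding sequence across called and uncalled clusters can be seen. These genes were picked by hand as examples. Each stretch is the first finger of the GENCODE canonical protein that is followed by the full linker, has 84 bases and lies within 1 exon. It is read 5′ to 3′ in the coding direction from hg38, with the codons of the 2 cysteines and 2 histidines that hold the zinc in capitals.

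ZNF91 (chr19:23362094-23362177, minus strand): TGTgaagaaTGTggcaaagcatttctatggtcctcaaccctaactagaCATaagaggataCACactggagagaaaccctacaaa
ZNF431 (chr19:21183003-21183086, plus strand): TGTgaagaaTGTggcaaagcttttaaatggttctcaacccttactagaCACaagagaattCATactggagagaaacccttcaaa
ZNF420 (chr19:37127412-37127495, plus strand): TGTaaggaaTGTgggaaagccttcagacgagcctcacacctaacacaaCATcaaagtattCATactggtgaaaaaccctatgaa
ZNF160 (chr19:53069592-53069675, minus strand): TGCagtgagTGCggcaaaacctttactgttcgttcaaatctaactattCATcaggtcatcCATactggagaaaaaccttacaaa
ZNF226 (chr19:44176355-44176438, plus strand): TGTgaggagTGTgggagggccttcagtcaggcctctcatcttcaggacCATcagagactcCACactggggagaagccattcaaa
ZNF45 (chr19:43914437-43914520, minus strand): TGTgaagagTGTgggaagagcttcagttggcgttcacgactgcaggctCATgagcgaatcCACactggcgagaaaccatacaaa

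ZNF91 and ZNF431 belong to the cluster at 19.7 to 24.1 Mb on the short arm, and their units were identical at 74 of the 84 bases (88.1%). ZNF420, of the cluster at 36.2 to 37.8 Mb, shared 71.4% of the bases with ZNF91, and ZNF160, of the cluster at 51.6 to 53.6 Mb, 65.5%. ZNF226 and ZNF45, whose cluster at 43.5 to 44.5 Mb held no domain, shared 61.9% and 65.5%. Only 1 finger of several per gene was compared, so these figures illustrate the units and rank nothing.

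Of the 249 genes, 193 (77.5%) started in a domain in control cells with ab176916, 198 (79.5%) in control cells with ab8898, 193 in RAB5A cells with ab176916 and 198 in RAB5A cells with ab8898. Over all 20033 protein-coding genes the shares were 7.2%, 7.57%, 7.21% and 8.15% in the same order. Among the 1227 other protein-coding genes of chromosome 19 they were 15.3%, 16.3%, 15.5% and 16.3%. In all 4 libraries together, 193 ZNF genes of chromosome 19 were in a domain, against 6.96% of all genes, 15.3% (188) of the other genes of the chromosome and 44 of the 266 ZNF genes on other chromosomes (16.5%). ZNF genes made up 193 of the 381 genes of chromosome 19 called in all 4 libraries (50.7%). Neighbouring genes share a domain, so these shares rest on 7 domains rather than on 193 separate calls, and no test was made of them.

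Control and RAB5A monolayers were called alike for all 249 genes when the antibody was held fixed. Over all protein-coding genes the call differed between conditions for 0.309% with ab176916 and 0.809% with ab8898, shares so small that a count of 0 among 249 genes is near the background. Control libraries averaged 195.5 ± 3.54 called genes, and so did the RAB5A libraries (195.5 ± 3.54; SD, n = 2 per condition). The difference of 0 had p = 1 in an exact permutation test (two-sided), which cannot go below 0.33 here. It was 0 with each antibody taken alone. The SD came wholly from the difference between replicate 1 and replicate 2, in which antibody and replicate cannot be told apart. Libraries of the same condition differed for 5 genes (2.01%) in control and the same 5 in RAB5A cells, each called with ab8898 and not with ab176916. Over all genes the antibodies differed for 0.529% in control and 1.05% in RAB5A cells. The antibody difference of 5 genes (193 ± 0 against 198 ± 0, SD, n = 2 each) gave p = 0.333 in the exact two-sided permutation test, the smallest value this design can give. These calls show whether a domain was present, and a change of signal within a domain would leave them as they are.

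The genes fell into 11 clusters when neighbouring starts within 500 kb were joined and at least 3 genes were required. The clusters held 238 genes, of which 191 were called in all 4 libraries, and 11 genes stood outside them. The clusters parted into those with a domain over nearly all their genes and those with none. In 4 clusters (36 genes) no gene was called in any library. In 2 clusters (66 genes) every gene was called in all 4 libraries. The other 5 (136 genes) had 125 genes called in all 4 libraries, and the exceptions all sat at an end of the cluster within 200 kb of a domain limit. When the limits were moved outwards by 1 bin of 200 kb, these 5 became fully called, so that 7 clusters were called throughout and the 4 without a domain stayed so. The 4 without a domain were also the shortest, at 0.107 to 0.975 Mb, against 1.16 to 4.46 Mb for the 7 others. The shortest domain on the chromosome was 1.2 Mb long. A missing domain therefore does not show that H3K9me3 was absent over these genes, and the part of cluster length in the calls was not tested.

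**Figure D1:**
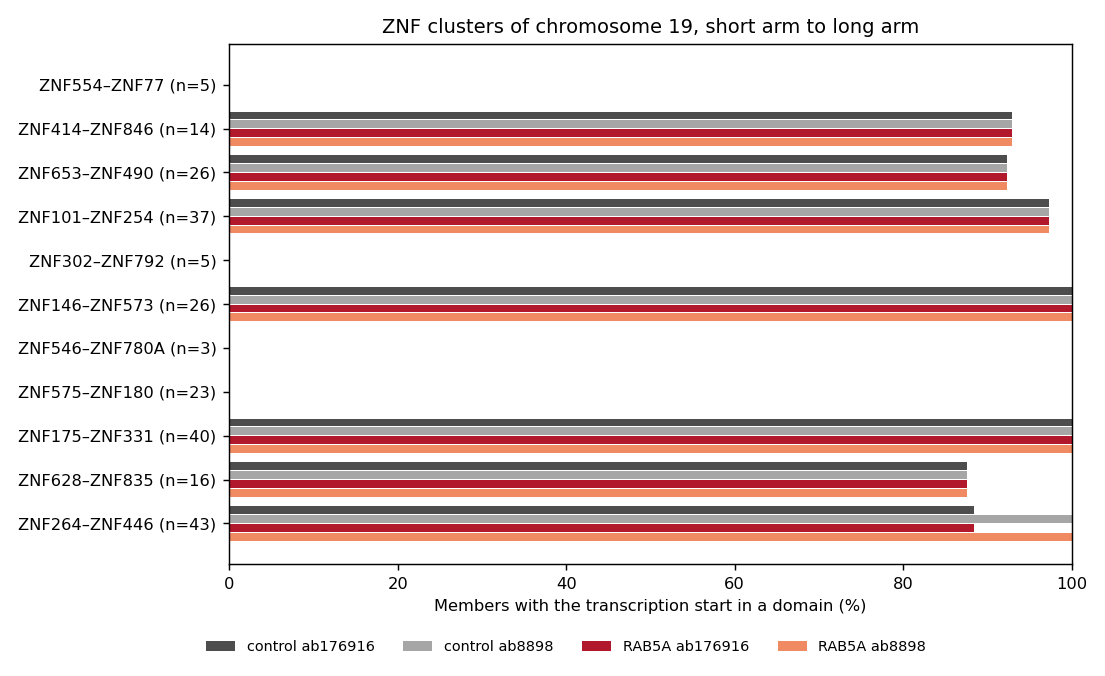
Share of the genes of each ZNF cluster (vertical axis, in chromosome order, n = genes) whose transcription start lay in a domain (horizontal axis, %), with 1 bar for each of the 4 libraries. The 4 clusters without bars had no called gene, and control and RAB5A bars of the same antibody have the same length in all 11 clusters.

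The first cluster from the tip of the short arm ran from ZNF554 to ZNF77 (chr19:2819868-2944971). Its 5 genes, ZNF554, ZNF555, ZNF556, ZNF57 and ZNF77, all had the KRAB pattern and between 7 and 15 fingers. None was called in any library, and the nearest domain limit was 5.66 Mb away.

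The second cluster ran from ZNF414 to ZNF846 (chr19:8509678-9793180) and had 14 genes, of which 13 were called in all 4 libraries. The exception was ZNF414, the first gene, which had a single finger and no KRAB pattern and started 85.8 kb before the domain at 8.6 to 9.8 Mb. The next gene, ZNF558, started 232.3 kb inside. At the other end ZNF846 started 6.82 kb inside the limit, the closest agreement of a cluster limit and a domain limit on the chromosome. The cluster holds olfactory receptor genes and MUC16 among its 14 other protein-coding genes, 13 of which were called as well.

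The third cluster, ZNF653 to ZNF490 (chr19:11483427-12640098), had 26 genes, 24 of them called in all 4 libraries by the domain at 11.6 to 12.8 Mb. ZNF653 and ZNF627, the first genes, started 94.2 and 40.6 kb outside it. ZNF627 itself ran across the limit: its 59.8 kb body entered the domain. ZNF823 followed at 139 kb inside. Beyond ZNF490, the domain continued for 0.16 Mb over 14 other genes up to JUNB, which encodes a subunit of the AP-1 transcription factor.

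The fourth cluster, ZNF101 to ZNF254, was the longest (chr19:19668796-24129968, 4.46 Mb), with 37 ZNF genes and 3 other protein-coding genes. All but ZNF254 were called in all 4 libraries, in the domain at 19.6 to 24 Mb. It includes the proteins with the most fingers, ZNF208 with 36, ZNF729 with 34 and ZNF91, a known repressor of SVA retrotransposons, with 31. Its genes were the most widely spaced of the 11 clusters, with a median of 70.6 kb to the nearest other ZNF gene, and its GC content of 41.2% was below that of the other 6 clusters with domains. ZNF726 started 85.1 kb inside and ZNF254 33.4 kb outside the centromere-side limit. This limit and the start of the next domain at 27.4 Mb face each other across the centromere. Whether they mark the end of H3K9me3 or of sequence in which domains could be called was not tested.

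The promoters of ZNF726 and ZNF254 are given because these genes lie on either side of a domain limit and were called differently in all 4 libraries. The sequences are the 250 bases before the RefSeq start on GRCh38.p14, 5′ to 3′ in the direction of transcription, with each CG dinucleotide in capitals.

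ZNF726 (chr19:23914636-23914885, plus strand): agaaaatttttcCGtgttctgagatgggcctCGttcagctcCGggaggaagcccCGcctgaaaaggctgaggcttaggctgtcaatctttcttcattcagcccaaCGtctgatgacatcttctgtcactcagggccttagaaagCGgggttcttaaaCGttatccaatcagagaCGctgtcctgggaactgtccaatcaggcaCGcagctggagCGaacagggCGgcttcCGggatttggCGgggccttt
ZNF254 (chr19:24086937-24087186, plus strand): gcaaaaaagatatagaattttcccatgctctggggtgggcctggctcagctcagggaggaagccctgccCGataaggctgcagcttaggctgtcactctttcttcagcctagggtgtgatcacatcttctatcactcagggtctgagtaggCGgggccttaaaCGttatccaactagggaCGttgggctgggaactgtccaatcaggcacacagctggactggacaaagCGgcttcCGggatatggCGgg

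In a global alignment, 199 of 261 columns were identical (76.2%), whereas ZNF726 and ZNF584, a gene of the last cluster shown further on, were identical in 46.5% of columns. ZNF726 had 13 CG dinucleotides and ZNF254 had 7. Over all 35116 RefSeq promoters, 93.9% of windows of this length held at least 1 and the median was 11. All 218 ZNF genes with a matching RefSeq promoter held at least 1, with a median of 16. The RefSeq start of ZNF254 lies 53782 bases downstream of the GENCODE start, farther from the domain, and the call was the same with either.

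The fifth cluster, ZNF302 to ZNF792 (chr19:34677639-34964229), comprised ZNF302, ZNF181, ZNF599, ZNF30 and ZNF792. All 5 had the KRAB pattern, and none was called in any library. The nearest limit, the start of the next domain, lay 1.24 Mb away. No other protein-coding gene started between them.

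The sixth cluster, ZNF146 to ZNF573 (chr19:36182276-37817300), had all of its 26 genes called in all 4 libraries, in the domain at 36.2 to 38 Mb. ZNF146 started 14.6 kb inside the limit and COX7A1, a cytochrome c oxidase subunit gene, 47.6 kb outside. ZNF573 started 182.7 kb from the far limit. The most fingers were found in ZNF850, with 29. The other 6 genes of the cluster, among them the zinc finger genes ZFP14, ZFP82 and ZFP30, were called as well.

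The seventh cluster was the smallest, ZNF546, ZNF780B and ZNF780A (chr19:39984134-40090943). Their proteins had 22, 21 and 17 fingers, the highest median (21) of any cluster, and each had the KRAB pattern. None was called, at 1.98 Mb from the nearest limit.

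The eighth cluster, ZNF575 to ZNF180 (chr19:43525497-44500524), was the largest without a domain. It held 23 genes in 0.975 Mb: ZNF575, ZNF576, ZNF428, ZNF283, ZNF404, ZNF45, ZNF221, ZNF155, ZNF230, ZNF222, ZNF223, ZNF284, ZNF224, ZNF225, ZNF234, ZNF226, ZNF227, ZNF233, ZNF235, ZNF112, ZNF285, ZNF229 and ZNF180. None was called in any library, nor were the 14 other genes in the cluster, which include the urokinase receptor gene PLAUR and the DNA repair gene XRCC1. The nearest limit lay 5.53 Mb away. In gene density, GC content, number of fingers and KRAB share it lay within the range of the 7 clusters with a domain. It had 23.6 ZNF genes per Mb, where those ran from 8.29 to 33.3. Its GC content was 43.3%, where those ran from 41.2% to 46.8%. Its median number of fingers was 13, where those ran from 9 to 13. The KRAB pattern was found in 19 of its 23 genes, against 6 of 16 in the tenth cluster and 39 of 40 in the ninth, the lowest and highest shares among those 7. The 4 without it were ZNF575, ZNF576 and ZNF428 at one end and ZNF180 at the other. The cluster lay below all 7 in length (0.975 Mb against 1.16 to 4.46 Mb) and in the median GC of its promoters (55.3% against 56% to 68.2%).

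The ninth cluster, ZNF175 to ZNF331 (chr19:51571283-53580269), had 40 genes, all called in all 4 libraries, in the domain at 51.2 to 55.2 Mb. This domain reached well past the cluster. It began 0.371 Mb before ZNF175, over 15 genes from CD33 to SIGLEC6 that include several sialic acid-binding SIGLEC receptors. It ended 1.62 Mb after ZNF331, over 55 genes that include the LILR and KIR receptor families of immune cells. Of the 124 genes in the domain, 40 were ZNF genes (32.3%), the lowest share among the domains that covered a cluster.

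The tenth cluster, ZNF628 to ZNF835 (chr19:55476617-56671783), had 16 genes, 14 called in all 4 libraries. ZNF628 started 123.4 kb and ZNF579 19.2 kb before the domain that opens at 55.6 Mb, in the gap of 0.4 Mb between it and the preceding domain, which holds 24 genes. The next gene, ZNF524, started 22 bases inside the domain, so its call turns on a limit set to the nearest 200 kb. The cluster was unlike the others in gene type: 6 of its 16 genes had the KRAB pattern, all 6 of them between ZNF582 and ZNF71, at least 794 kb inside the domain. The genes at its start, from ZNF628 to ZNF581, had no KRAB pattern whether called or not, and the median GC of its promoters, 68.2%, was above that of the other 10 clusters.

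The last cluster, ZNF264 to ZNF446 (chr19:57191500-58481230), was the largest, with 43 genes in 1.29 Mb, and lay in the same domain. All 43 were called with ab8898 in both conditions and 38 with ab176916 in both conditions. The 5 genes that differed were the last of the cluster, ZNF584, ZNF132, ZNF324B, ZNF324 and ZNF446. With ab176916 the domain ended at 58.4 Mb and they started 1.5, 40.2, 51.6, 67.1 and 74 kb beyond it. With ab8898 it ended 1 bin later, at 58.6 Mb, and they started 198.5, 159.8, 148.4, 132.9 and 126 kb inside. The 5 genes are therefore 1 difference and not 5: a single bin at the end of the chromosome, which is 58.6 Mb long. The bin also holds TRIM28, the corepressor of the KRAB proteins, and SLC27A5, ZBTB45, CHMP2A, UBE2M and MZF1. ZNF837, the last gene called in all 4 libraries, started 19 kb inside the ab176916 limit.

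The promoters of ZNF837 and ZNF584 flank the limit at which the antibodies differed and are written in the same way.

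ZNF837 (chr19:58381031-58381280, minus strand): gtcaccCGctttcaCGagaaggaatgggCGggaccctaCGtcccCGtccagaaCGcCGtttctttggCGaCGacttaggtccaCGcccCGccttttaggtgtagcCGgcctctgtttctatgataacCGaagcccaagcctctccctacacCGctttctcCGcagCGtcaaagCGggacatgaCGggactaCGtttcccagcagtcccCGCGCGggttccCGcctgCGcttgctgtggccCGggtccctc
ZNF584 (chr19:58408399-58408648, plus strand): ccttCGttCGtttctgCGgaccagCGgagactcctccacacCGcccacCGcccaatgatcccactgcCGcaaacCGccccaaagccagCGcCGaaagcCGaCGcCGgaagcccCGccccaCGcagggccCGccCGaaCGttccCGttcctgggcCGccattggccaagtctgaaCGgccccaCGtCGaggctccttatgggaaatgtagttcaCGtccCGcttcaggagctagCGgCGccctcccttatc

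They held 25 and 27 CG dinucleotides and were identical in 45.7% of alignment columns. The RefSeq start of ZNF837 is that of GENCODE, and that of ZNF584 lies 7145 bases further into the bin. The GC content of the RefSeq promoter window of 300 bases had a median of 67.3% over the 5 genes of the differing bin, against 59.3% over the 169 genes called in all 4 libraries that had a RefSeq promoter.

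Of the 11 genes outside clusters, 2 were called in all 4 libraries. ZNF536, a regulator of neuronal differentiation with a 488.7 kb gene, and ZNF507 lay in the domain that starts at 27.4 Mb next to the centromere, which covers no cluster. Neither had the KRAB pattern. ZNF507 started 54.4 kb inside the limit in control cells with ab176916 and 454 kb inside with ab8898, where that domain ended at 32.8 Mb. The other 9, from ZNF557 on the short arm to ZNF473 on the long arm, were called in no library and lay more than 1 Mb from any limit. They were ZNF557, ZNF358, ZNF333, ZNF574, ZNF526, ZNF296, ZNF541, ZNF114 and ZNF473, and 3 of them (ZNF557, ZNF333 and ZNF114) had the KRAB pattern.

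Altogether 51 genes (20.5%) were in no domain of any library. They split sharply by distance. The 6 already named at cluster ends (ZNF414, ZNF653, ZNF627, ZNF254, ZNF628 and ZNF579) started between 19.2 and 123.4 kb from a limit, within 1 bin. The other 45 started more than 1 Mb away, and no gene lay between these ranges. Of the 193 genes called in all 4 libraries, 24 started within 200 kb of a limit and 169 farther inside.

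**Figure D2:**
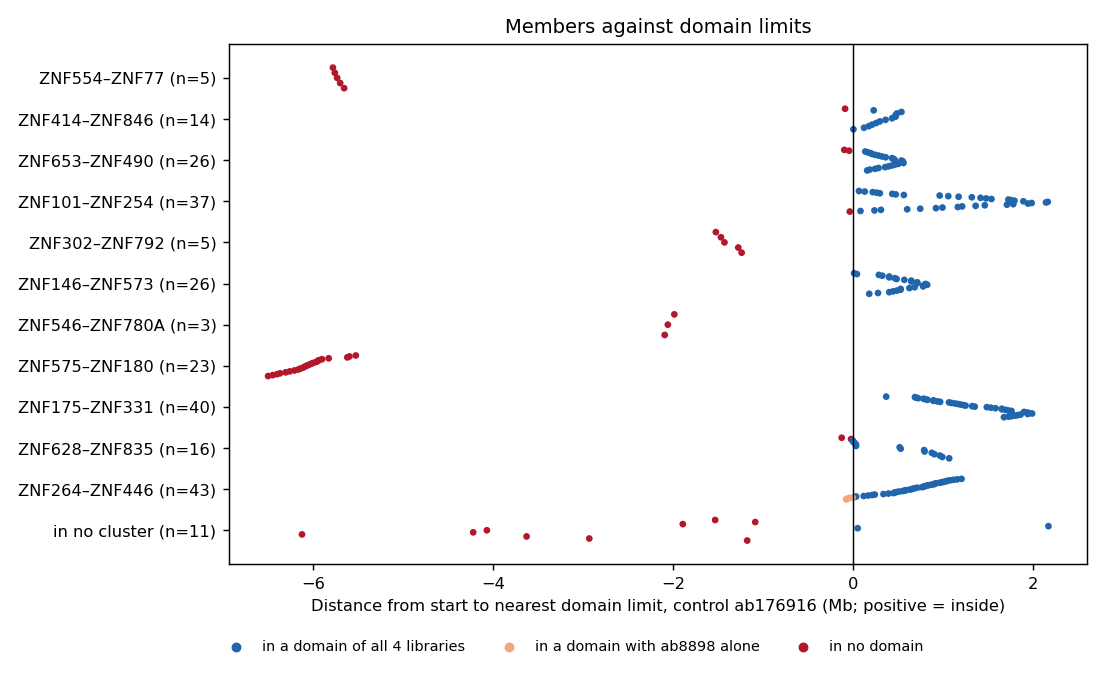
Distance from the transcription start of each of the 249 ZNF genes to the nearest domain limit in control cells with ab176916 (horizontal axis, Mb, positive inside a domain), by cluster in chromosome order (vertical axis), with colour for the number of libraries with a call. Clusters with a domain crowd at and to the right of 0, whereas the 4 clusters without one lie between 1.24 and 6.5 Mb to its left.

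Chromosome 19 had 7 domains in each library, which covered 20.4 Mb in control cells with ab176916, 21 Mb with ab8898, and 20.6 and 21 Mb after RAB5A induction in the same order (34.8%, 35.8%, 35.1% and 35.8% of the chromosome). Clusters 2, 3, 4, 6 and 9 had a domain each, clusters 10 and 11 shared the last, and the domain beside the centromere had no cluster. Of the 14 domain limits, 12 were at the same position in all 4 libraries. The end of the last domain moved with the antibody, as described. The end of the centromeric domain was called with ab176916 at 32.4 Mb without and at 32.6 Mb with RAB5A, and with ab8898 at 32.8 Mb in both conditions. The 200 kb called with ab176916 in RAB5A cells alone hold DPY19L3 and PDCD5 and no ZNF gene, and this was the only limit on the chromosome that differed between conditions. With ab8898 there was no difference.

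Most domain limits lay near cluster limits, although no expected distance was worked out for comparison. The distance from a domain limit to the nearest start or end of a cluster had a median of 126.7 kb in each of the 4 libraries (14 limits), within 1 bin, and 10 of 14 were within 200 kb. The 4 farther ones were both ends of the centromeric domain, at up to 3.27 Mb, and the 2 limits of the domain over the ninth cluster. No cluster was cut in its interior. The limit fell inside a cluster only among its outermost genes, at ZNF414, at ZNF653 and ZNF627, at ZNF254, at ZNF628 and ZNF579, at ZNF565, whose body reaches 17.7 kb across the limit at 36.2 Mb although its start is inside, and, with ab176916, at the 5 last genes.

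Gene content changed across the limits within a few bins. Each 200 kb window of the chromosome was assigned to its nearest limit. In control cells with ab176916, the 14 windows just outside held 11 ZNF genes (0.786 per window) and the 14 just inside held 24 (1.71 per window), rising to 2.64 per window at 400 to 600 kb inside. In the 44 windows between 200 and 1000 kb outside there were none. The other protein-coding genes ran the opposite way, from 6.36 per window just outside to 4.07 just inside and 1.86 at 400 to 600 kb inside. RAB5A cells with ab176916 had 11 ZNF genes just outside and 23 just inside, and ab8898 gave 6 and 24 in both conditions.

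**Figure D3:**
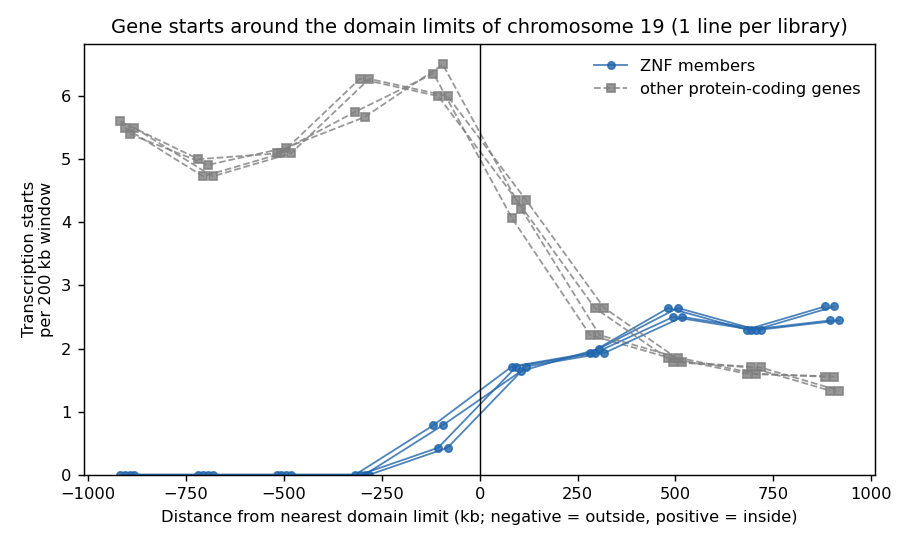
Mean number of transcription starts per 200 kb window (vertical axis) against the distance of the window from the nearest domain limit (horizontal axis, kb, negative outside and positive inside), for ZNF genes (circles) and other protein-coding genes (squares), with 1 line for each of the 4 libraries. ZNF genes are absent from 200 to 1000 kb outside and pass the other genes between 200 and 600 kb inside, and the lines of the 4 libraries run together.

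Windows with more ZNF genes were called more often. Neighbouring windows share a domain, so the shares below rest on 7 domains, and no test was made of them. Of 204 windows of 200 kb with no ZNF gene, 38 were called in all 4 libraries (18.6%), against 31 of 49 windows with 1 or 2 (63.3%), 26 of 32 with 3 to 5 (81.2%) and 7 of 8 with 6 or more (87.5%). The windows with no ZNF gene include those over the centromere, and whether domains could be called there was not tested. The single uncalled window of the last class, in the eighth cluster, held 8 ZNF genes at a GC content of 40.7%. GC content moved with the calls. Windows with ZNF genes had a median GC of 43.4% where called in all 4 libraries and 48.6% where called in none, and windows without ZNF genes 45.2% and 51.6%. The 11 windows of the 4 clusters without a domain had a median of 44%, close to the called windows. The part of GC content in the calls was not tested.

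**Figure D4:**
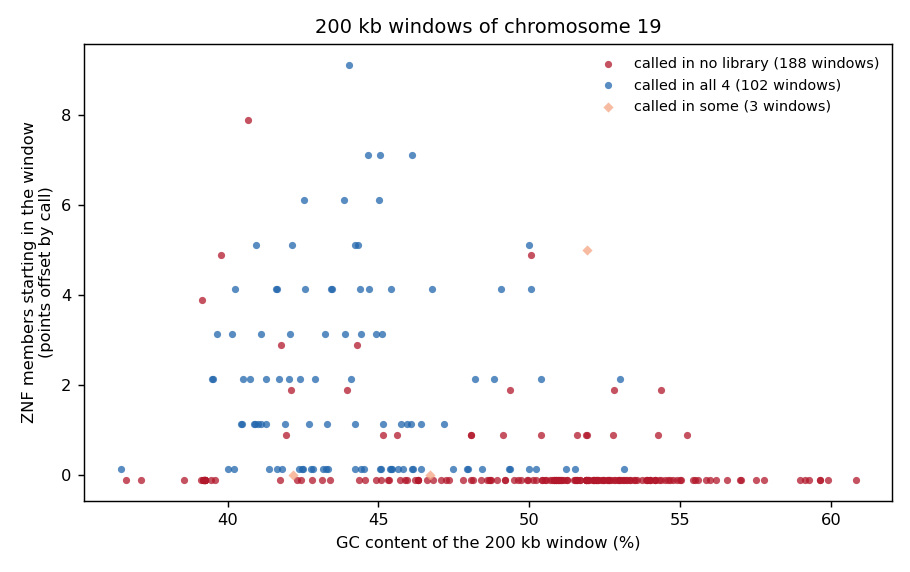
Number of ZNF genes starting in each 200 kb window of chromosome 19 (vertical axis, shifted slightly by call for legibility) against its GC content (horizontal axis, %), coloured by whether the window was called in all 4 libraries, in some or in none. Windows with 3 or more genes are mostly called, and the uncalled window with 8 genes lies at a GC content of 40.7%, below the 7 called windows with 6 or more genes.

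Genes called everywhere and genes of clusters without a domain had similar shares of KRAB and finger features. The KRAB pattern was found in 169 of 193 genes called in all 4 libraries (87.6%) and in 32 of 36 genes of the clusters without a domain (88.9%), but in 5 of the 15 other genes in no domain (33.3%), which are the 9 outside clusters and the 6 at cluster ends. It was found in 4 of the 5 genes called with ab8898 alone. The median number of fingers was 12 (quartiles 10 and 15), 13 (8.75 and 16) and 10 (5 and 13) in the first 3 of these sets. The fingers lay in the last exon for 2428 of 2462 fingers of called genes (98.6%) and for all 452 of the clusters without a domain. The linker between fingers in its full form followed 47.5% of fingers in called genes, 49.8% in the clusters without a domain and 16.9% in those 15 genes. The median gene length was 28.2 kb (quartiles 17.7 and 39.1) over the called genes and 17.5 kb (13.1 and 25) over the clusters without a domain. The medians of single clusters overlapped, from 13.5 to 41 kb in the 7 with a domain and from 11.2 to 28 kb in the 4 without. Neighbours share history and domain, so these figures are descriptions and no test was made.

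**Figure D5:**
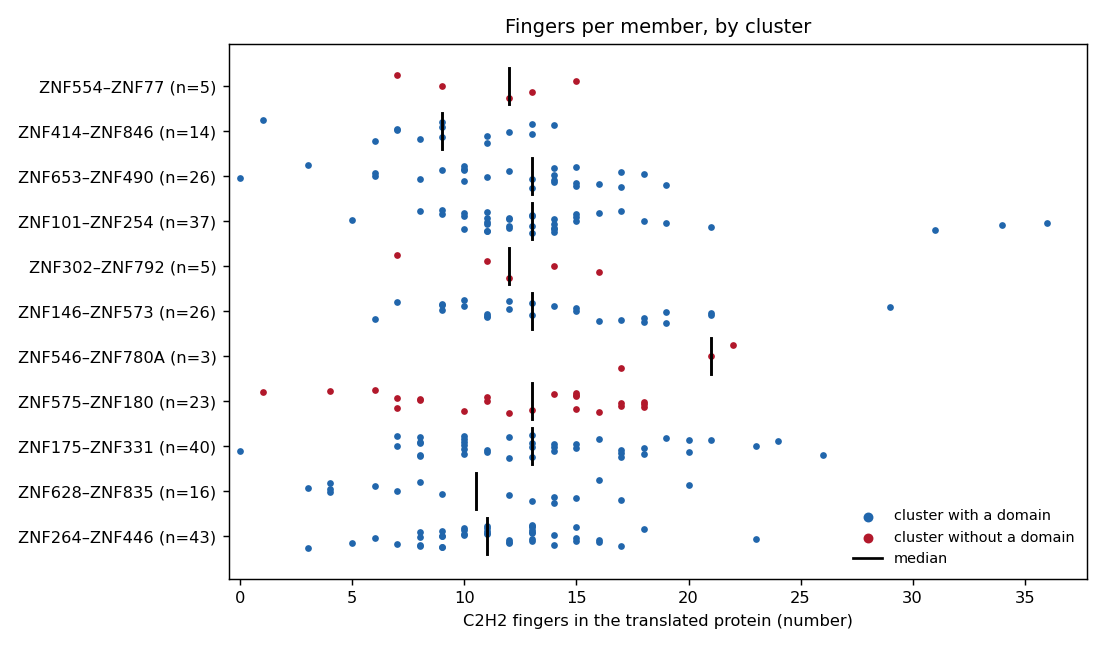
Number of C2H2 fingers in the protein of each of the 238 clustered ZNF genes (horizontal axis), by cluster in chromosome order (vertical axis), with a black bar at the median, in red for the 4 clusters without a domain. The medians run from 12 to 21 in the clusters without a domain and from 9 to 13 in those with one.

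In a list of 22 genes of the TRIM28 and H3K9 methylation pathway, 3 were called in all 4 libraries, 1 with ab8898 alone and 18 in none. Over all protein-coding genes, 6.96% were called in all 4 libraries and 91.7% in none, so 3 and 18 of 22 single out nothing about the list. The 3 were the H3K9 methyltransferase gene SUV39H1 and the chromatin remodeller gene ATRX, both on chromosome X, and ZNF274, a KRAB zinc finger gene that is itself a member of the last cluster and binds ZNF genes. The gene called with ab8898 alone was TRIM28. SETDB1, its partner ATF7IP, the HP1 genes CBX1, CBX3 and CBX5 and the methyltransferase genes SUV39H2, EHMT1 and EHMT2 were in no domain. Of those on chromosome 19, DNMT1, the maintenance DNA methyltransferase, lay 0.431 Mb and KDM4B, an H3K9 demethylase, 3.63 Mb from the nearest domain.

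The authors' scores, which have no stated unit and were used only as ranks within a list, placed the shortest domains of chromosome 19 low in total and higher per bin. The domains over the clusters ZNF414 to ZNF846 and ZNF653 to ZNF490 were 1.2 Mb long and ranked between 5 and 17 from the lowest of 76 to 79 domains in total score. Per 200 kb bin they ranked between 59 and 73. The domain over the fourth cluster ranked between 74 and 78 per bin, near the top in each of the 4 lists, and the centromeric domain without a cluster between 17 and 21. A filter that drops the scores below the lower quartile of a list removed both of these short domains in all 4 lists, with 37 ZNF genes, and left 156 called in all 4 libraries.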

How the data were processed

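H3K9me3 ChIP-seq was analysed from the domain lists of 4 libraries. The authors trimmed reads with Trimmomatic 0.39, aligned them to hg38 with BWA 0.7.17-r1188, marked duplicates with Picard 2.22, filtered with SAMtools 1.9 and called domains in each library with EDD against input, in bins of 200 kb. Reads of mapping quality below 1 were removed, and regions of the ENCODE exclusion list were set as unalignable for EDD. How far these steps affected the calls of these paralogous genes, or the limits beside the centromere, was not tested. The deposited files give each domain's position and the authors' score, and no counts.

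A gene was called where its GENCODE 44 start lay in a domain. Groups were compared by the exact two-sided permutation test over 6 labellings, in SciPy 1.17.1 (Python 3.11.15, NumPy 2.4.6), tested on simulated data. The only other test was an exact sign-flip test with the antibody as block, given below. Named genes are the outermost members of clusters, those on either side of a change of call, those outside clusters, neighbours of domain limits and the pathway list; other genes named were chosen after their values were seen. Fingers were counted in translated GENCODE canonical coding sequences, where a finger has cysteines and histidines at C2H2 spacing, and the KRAB pattern is the A-box motif with at most 2 of 9 positions changed. All 249 translated without an inner stop, and 247 had a finger. The RefSeq protein table and repeat masking foreseen in the design were not used here. Promoters, for 218 genes, came from RefSeq (GRCh38.p14), aligned with Biopython 1.88. Figures were drawn with matplotlib 3.10.9.

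The replicate number is the antibody, as the labels state, so same-numbered libraries form pairs. Deviations from the condition means correlated with r = 1 within each antibody, a value that rests on 5 genes of a single bin. It follows from calls that were alike in both conditions and gives no separate evidence for pairing. The members and lists were chosen with earlier results of these data known.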

Additional observations from a re-analysis of the deposited data

How the results depend on the processing

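The difference between RAB5A and control was 0 genes under every alternative run, including the replicate block by antibody (exact sign-flip test, p = 1, smallest possible 0.5) and without replicate 1 or replicate 2. The number of genes called in all 4 libraries ran from 156 with the score filter to 204 with limits moved outwards by 1 bin, and was 193 to 198 with 1 replicate left out. It was 194 with any base of the gene body in a domain, 192 with the whole body, 190 without the 3 read-through symbols and 169 with limits moved inwards by 1 bin. RefSeq starts changed 0 of 218 calls. The clusters without a domain numbered 4, and 6 with the score filter or with clusters of at least 2 genes. The fully called clusters numbered 7 when neighbours within 250 kb were joined (15 clusters) or limits were moved outwards, and 1 when limits were moved inwards. The median distance from domain to cluster limit was 109 kb with ab176916 and 125 kb with ab8898 (mean of the 4 libraries' medians, 117 kb) with cluster limits at transcription starts, and 145 kb when neighbours within 250 kb or 1 Mb were joined. Of 40 alternative values of 5 results, 34 stayed the same and 6 moved. The 34 include 2 settings that could change nothing here: dropping domains under 1 Mb and merging domains closer than 400 kb. The shortest domain on the chromosome was 1.2 Mb long and the narrowest gap 400 kb. The values that moved were numbers of fully called clusters and median distances. For counts 1.5 times the reported count was taken as the bound of a change, and for the median distance the spread of the 4 libraries' medians. These 4 medians were equal, so any change of the median distance, however small, counted as moved. Moving limits, merging domains 400 kb or less apart and RefSeq starts were chosen after seeing the data. The depth of each library is unknown, and calls within 1 bin of a limit, 35 genes, are the least certain.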
